A study of Rosa chinensis with 4 samples.

Results

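H3K9ac peaks that stood alone were examined in petals of Rosa chinensis, the China rose, at the onset of flower opening. The isolated peaks were chosen by width, spacing and surroundings: at least 400 and under 1500 bp wide, with at least 15 kb to the neighbouring peak on both sides. The summit, the base of highest signal, had to lie in a window of 1 Mb with more than 40 and fewer than 160 summits, so windows poor in peaks and the fullest windows were left out. By this rule 1392 of the 46596 peaks called on the RchiOBHm assembly were isolated, out of 46391 on its 7 chromosomes. Widths, spacing and peak numbers chose these peaks and are given as a description only. The series holds 4 samples of 1 library each, namely an H3K9ac and an H3K27me3 immunoprecipitation and an input for each, all from petals of that stage. Of these, 3 samples were not used here, and all values come from the H3K9ac peak lists. With 1 library no test across samples was possible, so the intervals, all of 95%, cover counting error only, and peaks are not independent replicates.

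H3K9ac is an acetyl group on a lysine in the tail of histone H3. In plants it is placed by histone acetyltransferases and removed by deacetylases, and it is known for marking the first part of transcribed genes. Acetylated histones are also found at regulatory DNA away from genes. In gene-rich chromatin the acetylated regions of neighbouring genes lie close together, whereas the peaks described here each stood in a stretch with no other called region.

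Peaks of the same width in the same windows that had a neighbour within 15 kb on at least 1 side served as the comparison. There were 16199 of these closer peaks, so isolated peaks made up 7.91% of the 17591 peaks of that width and those windows. Spacing alone was met by 2767 peaks, and 2468 of them lay in windows of more than 40 and fewer than 160 summits. Of these 2468, 1035 were narrower than 400 bp and 41 were 1500 bp or wider. Isolated peaks were found in 397 of the 418 such windows, with a median of 3 per window. The most, 11, lay on chromosome 7 between 43000001 and 44000000, in a window of 52 summits.

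The empty stretches around isolated peaks were often much longer than the rule asked for. The smaller of the 2 gaps had a median of 22.2 kb, with quartiles of 17.7 and 30.6 kb, and the larger a median of 42.1 kb. In closer peaks the smaller gap had a median of 1.43 kb. The smaller gap reached 30 kb in 359 isolated peaks (25.8%) and 50 kb in 81 (5.82%). Spacing and the number of summits per window both belong to the rule and are linked, so the share of isolated peaks by window is a description. Isolated peaks were 12.4% (11.6 to 13.2) of the peaks of their width in windows of 41 to 80 summits, 5.95% (5.38 to 6.55) at 81 to 120, and 3.32% (2.79 to 3.92) above 120.

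Within the widths of the rule, isolated peaks were not lower in median fold than closer ones. With any width, 2468 isolated peaks had a median fold of 5.71, beside 4.68 over all 46391 chromosomal peaks. The deposited fold enrichment of each peak over its local background, a value of the authors, had a median of 7.60 (interval of the median 7.38 to 7.87) in isolated peaks, with quartiles of 5.66 and 10.4. In closer peaks the median was 7.13 (7.09 to 7.20). The median width, which the rule limits in both groups, was 712 bp (696 to 734) in isolated and 721 bp (716 to 727) in closer peaks. The fragments over the summit, recovered from the deposited fold and p-value, had a median of 36 in isolated peaks, with a range of 11 to 233, and of 33 in closer peaks. A −log10 q-value of at least 10 was reached by 82.3% of isolated and 74.6% of closer peaks. Local background under the summit had a median of 3.49 fragments in isolated and 3.59 in closer peaks, and it was at most 3.1 in 30.2% and 22.1% of them. These heights come from the same comparison with the input as the peak calls and are therefore not tested.

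Among isolated peaks wider ones were also higher. Spearman's rho between width and fold was 0.396 over 1392 isolated peaks and 0.485 over 16195 closer peaks, all from the same library. Height did not follow the spacing within the group, with a rho of −0.06 between the smaller gap and the fold. At the edge of the rule, the 139 isolated peaks with a smaller gap of 15 to 16 kb had a median fold of 7.97. The 154 peaks with a smaller gap of 14 to 15 kb and a larger gap of at least 15 kb had a median of 8.30. Of these, 54.0% of the 139 and 48.7% of the 154 lay at protein-coding gene ends, in the opposite order to isolated and closer peaks as a whole. That is 75 peaks in either group, and no interval of this difference was computed. The 5 isolated peaks nearest to the limit had smaller gaps of 15009 to 15041 bp and folds of 7.01 to 10.3. The 5 nearest from outside had 14959 to 14974 bp and folds of 4.67 to 13.7. On the limits of width, the 105 isolated peaks of at least 400 and under 450 bp had a median fold of 5.32, and 116 equally spaced peaks of at least 350 and under 400 bp had 4.89. At the upper limit the 47 peaks of at least 1300 bp had 9.17, and the 18 of at least 1500 and under 1700 bp had 9.61. On the window limits, the 58 isolated peaks in windows of 41 to 45 summits had a median fold of 8.19, and the 32 in windows of 36 to 40 had 8.57. The 11 in windows of 150 or more had 6.62, and the 11 in windows of at least 160 and under 170 had 7.62.

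Gene positions were not used by the rule, and they showed where these lone regions of acetylation lay. The version of the RchiOBHm assembly behind the peak coordinates is not stated in the sources used here, and every location below takes it to match the RchiOBHm-V2 gene positions. Of 1392 isolated summits, 714 (51.3%, 48.6 to 53.9) fell within a protein-coding gene, at most 1 kb from either end of it. Another 323 (23.2%, 21.01 to 25.5) lay more than 1 kb from any annotated gene, and 213 (15.3%, 13.4 to 17.3) lay inside the gene of a long non-coding RNA (lncRNA), a transcript that encodes no protein. The interior of protein-coding genes deeper than 1 kb held 52 (3.74%, 2.80 to 4.87). The space outside genes but within 1 kb of one held 46 (3.30%, 2.43 to 4.38), and other genes held 44 (3.16%), of which 40 were pseudogenes and 4 were genes typed as misc_RNA. Genes of tRNA, snoRNA, snRNA and rRNA held 0 of 1392 summits, which allows a share of up to 0.216% (3 counts of the total).

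Compared with closer peaks, isolated peaks lay less often in protein-coding genes and more often in lncRNA genes and away from genes. The share at protein-coding gene ends was 58.8% in closer peaks, a difference (isolated minus closer) of −7.48 percentage points (Newcombe interval −10.2 to −4.75). The share deeper in protein-coding genes was 9.59% in closer peaks, a difference of −5.86 points (−6.85 to −4.64). Part of that deficit follows from the rule, since a deep peak within 15 kb of another peak in its gene cannot be isolated. In lncRNA genes the closer peaks had 7.53%, a difference of 7.78 points (5.93 to 9.80). More than 1 kb from any gene the closer peaks had 15.1%, a difference of 8.12 points (5.90 to 10.5). Beyond 10 kb from any gene lay 101 isolated summits (7.26%, 5.95 to 8.75) and 331 closer ones (2.04%, 1.83 to 2.27), a difference of 5.21 points (3.94 to 6.71). Part of the excess away from genes follows from the rule. Of all chromosomal peaks 72.4% lay inside a gene, and a peak in a gene within 15 kb breaks the rule. Both leading differences depended on the settings. Over the 13 alternatives the difference at protein-coding gene ends ran from −11.5 to −4.36 points, and that more than 1 kb from any gene from 4.50 points, for peaks of −log10 q 10 or more, to 15.6 points with any width. Over all 46391 chromosomal peaks, which include narrower and wider ones, 49.2% (48.7 to 49.7) lay at protein-coding gene ends, so the lower share of isolated peaks there was seen against closer peaks of their width and windows. Of all those peaks 5.97% lay in lncRNA genes, 18.2% more than 1 kb from any gene and 72.4% inside a gene of any kind, the last against 73.5% of isolated peaks. Pseudogenes held 2.87% of isolated and 2.38% of closer summits, and the interval of that difference, −0.305 to 1.53 points, included 0.

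**Figure D1:**
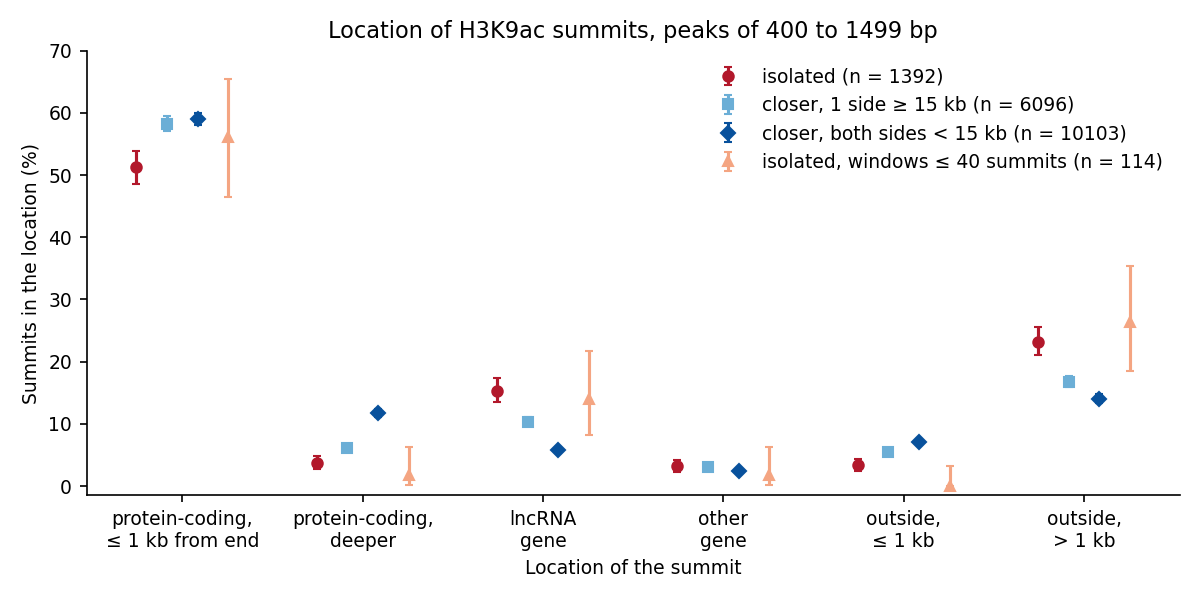
Location of H3K9ac summits in 4 groups of peaks of at least 400 and under 1500 bp: the vertical axis gives the percentage of each group's summits, the horizontal axis the 6 locations, and bars are 95% exact binomial intervals. Isolated peaks (1392) had 51.3% at protein-coding gene ends, 15.3% in lncRNA genes and 23.2% more than 1 kb from any gene, against 59.1%, 5.81% and 14.1% for the 10103 peaks with a neighbour within 15 kb on both sides.

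The peaks with a free stretch of 15 kb on 1 side only lay between both groups in several locations. Among these 6096 peaks, lncRNA genes held 10.4% (9.61 to 11.2), between the 5.81% (5.36 to 6.28) of peaks with neighbours on both sides and the 15.3% of isolated ones. Deep interiors of protein-coding genes held 6.15% of them, against 11.7% with neighbours on both sides and 3.74% in isolated peaks. For the space more than 1 kb from any gene the 3 shares were 16.8%, 14.1% and 23.2% in that order. The share at protein-coding gene ends, however, was 58.3% with a neighbour on 1 side and 59.1% on both, with overlapping intervals, and was lower only in isolated peaks.

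Isolated peaks of the same width elsewhere were few, so their shares are known only roughly. In windows of 40 or fewer summits there were 114, of which 56.1% (46.5 to 65.4) were at protein-coding gene ends, 14.04% in lncRNA genes and 26.3% more than 1 kb from any gene. The interval of each of these 3 differences from the isolated peaks described here included 0. Summits beyond 10 kb from any gene were more frequent there, at 14.04% (8.24 to 21.8), a difference (isolated peaks by the rule minus those in poorer windows) of −6.78 points (−14.4 to −1.36). In windows of 160 or more summits the 53 isolated peaks had 43.4% (29.8 to 57.7) at gene ends and 22.6% away from genes. At gene ends the difference, isolated peaks by the rule minus these, was 7.90 points (−5.70 to 20.6).

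Because isolated peaks sat in emptier windows, with a median of 73.5 summits against 90 for closer peaks, locations were also compared within classes of windows. In windows of 41 to 80 summits the share in lncRNA genes was 15.1% in isolated and 9.27% in closer peaks, a difference of 5.79 points (3.45 to 8.42). It was 9.19 points (5.78 to 13.2) at 81 to 120 summits and 8.60 points (3.67 to 15.5) above 120. Summits away from genes by more than 1 kb had a higher share in isolated peaks, by 6.67 points (3.84 to 9.70) and 11.2 points (6.92 to 15.8) in the poorer 2 classes. In the fullest class the difference was 3.69 points and its interval of −1.82 to 11.0 included 0. The deficit at protein-coding gene ends was −11.1 points (−16.2 to −5.99) at 81 to 120 summits and −8.95 (−17.5 to −0.633) above 120. In the windows of 41 to 80 summits, which held 870 of the isolated peaks, it was −3.07 points, with an interval of −6.61 to 0.463 that included 0.

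Within 1 kb of protein-coding gene ends, the median positions of the summit and both edges of the peak were close to those of closer peaks. The most populated stretch of 100 bp lay 200 to 300 bp inside the gene end and held 178 isolated summits (12.8% of all), followed by 163 at 300 to 400 bp. The 100 bp just outside the end held 6 (0.431%). Among the 714 peaks at gene ends, the summit lay a median of 329.5 bp inside (315 to 347). The outer edge of the peak lay 42 bp inside the end (36 to 48) and the inner edge 841.5 bp inside (817 to 866). In the 9520 closer peaks at gene ends the 3 medians were 327, 41 and 856 bp, so the 3 intervals overlapped those of the isolated peaks. Deeper inside, at 1000 to 1100 bp, isolated summits had 0.287% (0.0783 to 0.734) and closer ones 0.920% (0.779 to 1.08). The outer edge crossed the gene end in 190 of 714 isolated peaks (26.6%, 23.4 to 30.01). The gene table used here gives no strand, so starts and ends of transcription could not be told apart. The lower-numbered end carried the peak in 369 genes (51.7%, 47.9 to 55.4).

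**Figure D2:**
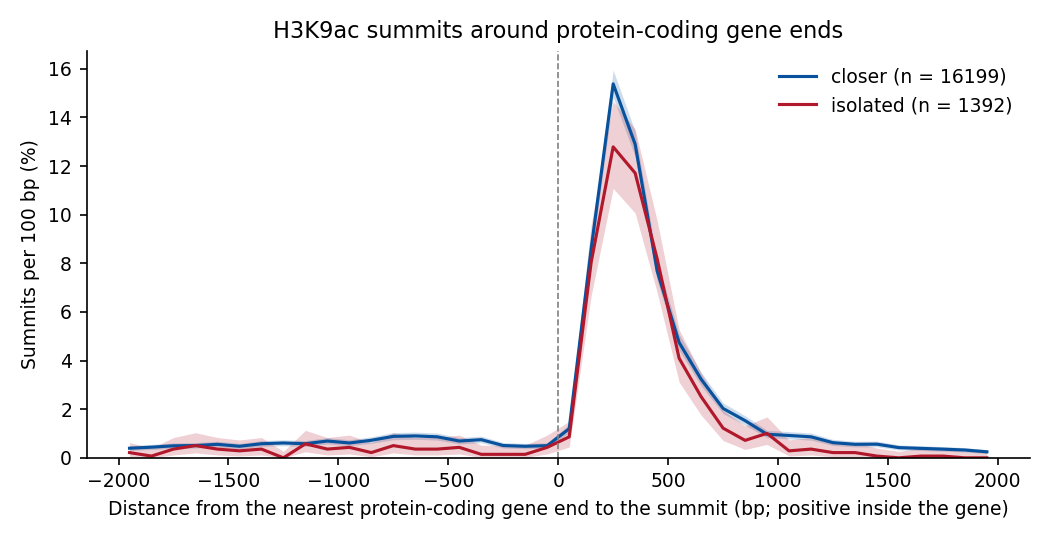
Summits around the nearest protein-coding gene end: the horizontal axis gives the distance in bp, positive inside the gene, and the vertical axis the percentage of all summits of a group per 100 bp, with 95% exact binomial bands. Both groups peak 200 to 300 bp inside the gene, at 12.8% for isolated and 15.4% for closer peaks, and both stay low outside the end.

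A second gene end within 1 kb was rare beside an isolated summit. Only 32 isolated summits (2.30%, 1.58 to 3.23) had the ends of more than 1 protein-coding gene within that distance, against 8.17% (7.75 to 8.60) of closer summits. The difference was −5.87 points (−6.66 to −4.85). Of all protein-coding genes 63.9% had a peak within 500 bp, and a second peak within 15 kb breaks the rule. Part of this deficit therefore follows from the rule.

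The protein-coding genes that carried isolated summits were long. The 766 isolated summits inside protein-coding genes fell into 764 genes with a median length of 4540 bp (4258 to 4953). The 9543 genes with a closer summit had a median of 3703 bp (3647 to 3756), and all 30798 protein-coding genes on the chromosomes had 2767.5 bp. A gene can carry peaks of both kinds. The intervals of both kinds of peak were separate in the emptiest class of windows only. At gene ends in windows of 41 to 80 summits the median host was 4818 bp (4472 to 5212) for isolated and 3999.5 bp (3901 to 4118) for closer peaks. At 81 to 120 summits the values were 4015 bp (3392 to 4388) and 3486 bp (3405 to 3576), and above 120 they were 3525 bp (2986 to 4008) and 3270 bp (3154 to 3365), with overlapping intervals in both. A single annotated transcript was listed for 55.4% (51.8 to 58.9) of genes with an isolated summit, against 61.6% (60.6 to 62.6) of those with a closer one and 73.1% of all protein-coding genes. The peak covered a median of 17.7% of its gene, and the whole gene in 5 cases.

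Most isolated peaks were not alone in genes. Within 15 kb on either side, 853 of 1392 (61.3%, 58.7 to 63.8) had at least 1 other protein-coding gene that did not come within 500 bp of the peak. There was 1 such gene beside 512 peaks, 2 beside 233 and 3 or more beside 108. The mean was 0.963 such genes per isolated peak and 2.25 per closer peak. Part of that difference follows from the rule, since a peak in such a gene within 15 kb would break it. No other gene of any kind lay within 15 kb of 325 isolated peaks (23.3%, 21.1 to 25.7) and 881 closer peaks (5.44%). A total of 64 isolated peaks (4.60%, 3.56 to 5.83) had neither a gene beneath nor one within 15 kb, against 120 closer peaks (0.741%, 0.615 to 0.885).

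The protein-coding genes beside isolated peaks without a peak of their own were short, as were all protein-coding genes without a peak. Of 1306 protein-coding genes within 15 kb, 1170 (89.6%, 87.8 to 91.2) had no peak within 500 bp of the gene, and the other 136 reached past the empty stretch or had a peak beyond it. This share follows from the rule and is no finding. The 1170 genes had a median length of 1941 bp (1811 to 2056), and 86.8% (84.8 to 88.7) had a single annotated transcript. Over all 11129 protein-coding genes without a peak the values were 1785 bp (1753 to 1823) and 87.1% (86.4 to 87.7), with overlapping intervals. Of the 1947 genes of every kind beside isolated peaks, 397 (20.4%) were lncRNA genes and 186 (9.55%) pseudogenes. Among all genes, with or without a peak, these kinds made up 15.1% and 6.30%. The rule favours genes without a peak there, and 371 of the 397 and 175 of the 186 had none within 500 bp. The shares of these kinds among all genes without a peak were not computed. Whether the higher shares are particular to isolated peaks was therefore not tested. Few peaks beside an isolated one means few regions that passed the authors' threshold in this library. Weaker acetylation below that threshold was not measured.

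**Figure D3:**
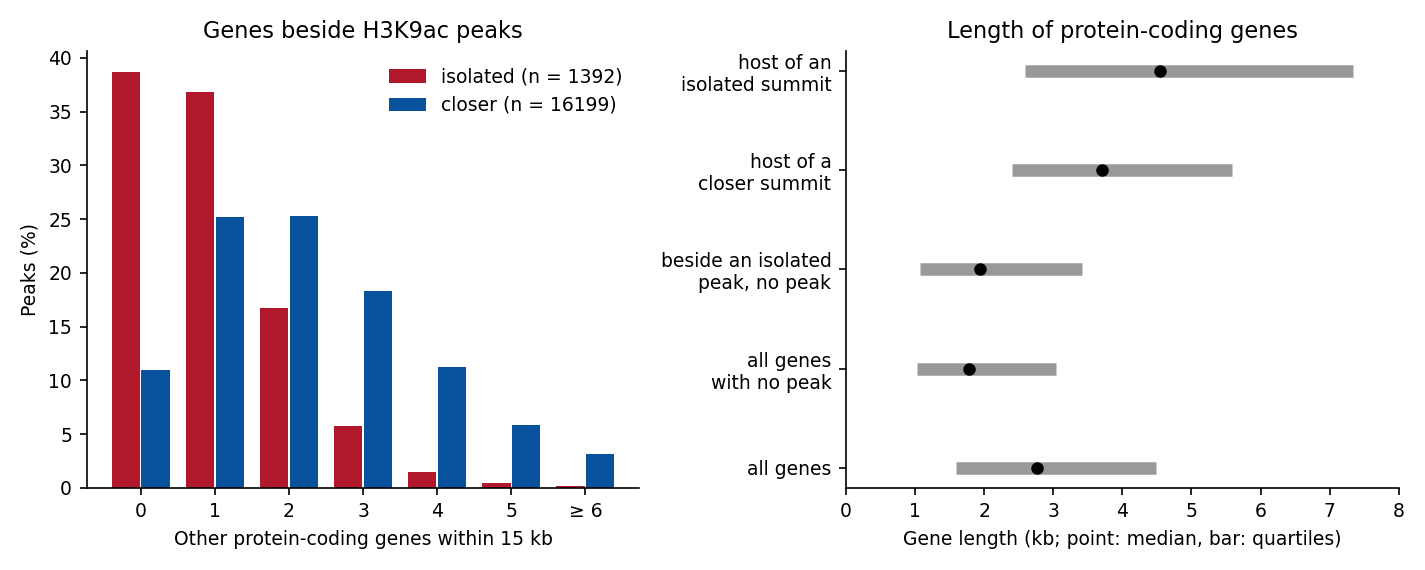
Left, the percentage of isolated (1392) and closer (16199) peaks by the number of other protein-coding genes within 15 kb; right, the length in kb of protein-coding genes, with the median as a point and the quartiles as a bar. No such gene lay beside 38.7% of isolated and 11.01% of closer peaks, and the median length was 4540 bp under isolated peaks and 1941 bp for the genes without a peak beside them. Over all protein-coding genes without a peak the median was 1785 bp.

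Height varied with location among isolated peaks. Those at protein-coding gene ends had a median fold of 8.15 (7.69 to 8.42) and a median width of 783 bp (759 to 805). Those in lncRNA genes had 7.31 (6.89 to 7.79) and 712 bp, and those deep in protein-coding genes 6.03 (5.39 to 6.91) and 740.5 bp. Peaks more than 1 kb from any gene were the narrowest of these, with a median of 596 bp (564 to 625), yet their median fold was 7.42 (7.04 to 7.87). Closer peaks away from genes had a median fold of 6.60 (6.42 to 6.69) and a median width of 603 bp (593 to 613). A fold of at least 10 was reached by 27.9% of the isolated peaks away from genes and by 20.8% of the closer ones. At gene ends the shares were 32.4% and 32.8%.

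**Figure D4:**
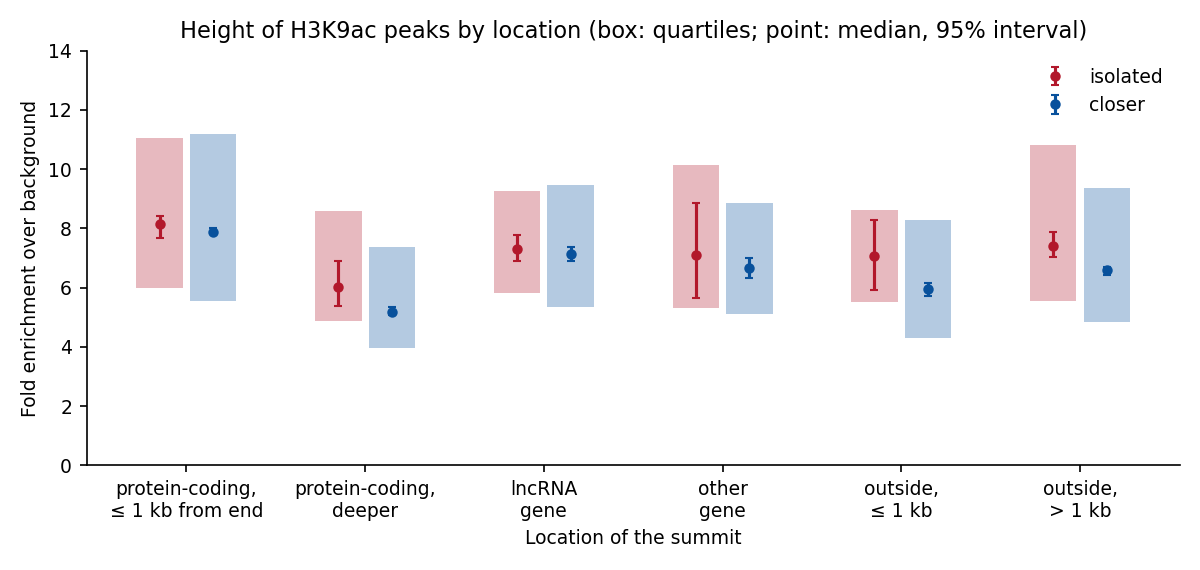
Fold enrichment over local background by location for isolated and closer peaks: boxes span the quartiles, points are medians and bars their 95% intervals. At protein-coding gene ends the medians were 8.15 and 7.87, and more than 1 kb from any gene they were 7.42 and 6.60.

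The tallest isolated peaks were divided between gene ends and the space away from genes. Of the 25 isolated peaks with a fold of at least 20, 12 lay at protein-coding gene ends and 12 more than 1 kb from any gene (48%, 27.8 to 68.7, for either), and 1 lay deep in a gene. None lay in a lncRNA gene, which at 0 of 25 allows a share of up to 12% (3 counts of the total). In closer peaks of that height 28.02% (22.3 to 34.3) lay away from genes and 19 of 232 in lncRNA genes. When isolated peaks were ranked into 4 classes by fold, the share at protein-coding gene ends was 46.1% in the lowest and 58.3% in the highest class. The share away from genes was 25.5% and 24.1%, and that in lncRNA genes went from 13.8% over 19.3% and 17.9% to 10.3%.

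Of the 10 isolated peaks of highest fold, 6 lay away from genes. Coordinates are on RchiOBHm, and genes are RefSeq entries on RchiOBHm-V2 known by identifier only. The highest lay on chromosome 2 from 7637471 to 7638133, with 144 fragments over its summit and a fold of 29.8 (25.2 to 35.04). It stood 46.2 and 30.01 kb from its neighbouring peaks, and 9348 bp from the nearest gene, LOC112183583. The next, spanning 30755354 to 30756052 of chromosome 7, reached 28.04 (23.9 to 32.7), with the pseudogene LOC112177766 at a distance of 5533 bp. The third, on chromosome 2 from 71929415 to 71930035, reached 27.4 (22.8 to 32.6), and its nearest gene, LOC112184936, was 3527 bp away, with 123 kb free of peaks on its right. A pair on chromosome 3, from 38094470 to 38095238 and from 37613572 to 37614222, had folds of 25.6 and 22.7, and a peak on chromosome 2 from 59625729 to 59626471 had 22.7, its nearest gene being 14296 bp away. The intervals of all 10 overlapped one another, so their order by height is uncertain at this depth. Overlap does not show that heights are equal, and differences between single peaks were not tested. These intervals rest on the fragments over the summit and leave out error in the background.

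The other 4 of the 10 lay at protein-coding gene ends. On chromosome 5 a peak from 78292687 to 78293548, with a fold of 25.6 (20.9 to 30.97), covered the whole of LOC112166648, a gene of 816 bp. It had 119 kb without a peak on its right. LOC112173892 on chromosome 6, from 7894465 to 7901052, carried a peak of fold 25.2 (20.7 to 30.3) with its summit 369 bp inside. LOC112166812 on chromosome 5, from 67602091 to 67608293, had 24.6 (20.03 to 29.9) and its summit 356 bp inside, under a peak of 1358 bp. LOC112189522 on chromosome 2, from 71622210 to 71624776, had 22.9 (18.7 to 27.8) and its summit 234 bp inside.

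The 5 peaks farthest from other peaks had folds of 5.24 to 8.16, and 4 of them were below the median of isolated peaks. The largest distance to the nearer neighbouring peak was 117.9 kb, for a peak on chromosome 4 from 17248411 to 17249119 that lay in LOC112199844, with 25 fragments over its summit and a fold of 6.39 (4.22 to 9.32). LOC112166826 on chromosome 5, from 40658992 to 40664584, carried the next, 114.8 kb from a neighbour, with a fold of 6.06. The third and the fourth, at 111.3 and 109.7 kb, lay in the pseudogenes LOC112199880 on chromosome 4 (fold 8.16) and LOC112167376 on chromosome 5 (fold 5.24). The fifth, 101.5 kb from a neighbour on chromosome 4, lay 7478 bp from the pseudogene LOC112196459 and had a fold of 5.45.

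The 5 widest isolated peaks measured 1480 to 1493 bp, and 3 of them lay at the ends of LOC112167489, LOC112188068 and LOC112165750. In LOC112165750, a gene of 1833 bp on chromosome 5, the peak covered 1487 bp at a fold of 5.88. Another, with a fold of 12.3 (9.16 to 16.2), lay 8885 bp inside LOC112179015 on chromosome 7, a gene of 40727 bp. The widest of all, spanning 26382150 to 26383642 of chromosome 7, had a fold of 5.90, and the distance from its summit to a gene was 9780 bp.

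Most isolated peaks in lncRNA genes lay more than 5 kb from a protein-coding gene, which the rule favours. Of the 213 such peaks, each in a different lncRNA gene, 162 (76.1%, 69.7 to 81.6) had no protein-coding gene within 5 kb. For the 1219 closer peaks in lncRNA genes the share was 52.3% (49.5 to 55.2), a difference of 23.7 points (16.96 to 29.7). Part of that difference follows from the rule. Of all protein-coding genes 63.9% had a peak within 500 bp, and a second peak within 15 kb breaks the rule. The median distance of the isolated peaks in lncRNA genes to a protein-coding gene was 10984 bp. Of their summits, 208 of 213 (97.7%) lay within 1 kb of either end of the lncRNA gene. In genes of up to 2 kb every base does, so part of that share follows from gene length. The median distance to the end was 322 bp, beside 329.5 bp for the summits within 1 kb of protein-coding gene ends. The lncRNA genes under isolated peaks had a median length of 3239 bp, against 1929 bp for all lncRNA genes, with or without a peak. They were not compared with the lncRNA genes under closer peaks, so this length is not shown to be particular to isolated peaks. The highest 3 folds, picked after their values were seen, were 18.9 (14.97 to 23.6) in LOC121050462 on chromosome 7, 17.2 (13.6 to 21.6) in LOC121052956 on chromosome 4 and 16.6 (13.9 to 19.5) in LOC121051559 on chromosome 2.

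The 323 isolated peaks more than 1 kb from any gene reached far into unannotated space. Their median distance to the nearest gene was 6138 bp, with quartiles of 2993.5 and 11870 bp, against a median of 3482.5 bp for the 2444 closer peaks in that location. Part of that difference follows from the rule, since a peak in a gene within 15 kb would break it. The nearest gene was protein-coding for 222, a lncRNA gene for 68 and a pseudogene for 31. Of the 323, 190 lay beyond 5 kb, 38 beyond 20 kb and 3 beyond 50 kb. Those 3, picked for their distance, lay on chromosome 7 from 37435081 to 37436169 (56559 bp from a gene, fold 7.47), on chromosome 2 from 38160932 to 38161696 (55945 bp, fold 11.6) and on chromosome 7 from 62101238 to 62101857 (53299 bp, fold 11.99). Whether unannotated genes lie there was not tested.

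The 52 isolated peaks deeper than 1 kb in protein-coding genes lay in long genes, which this location partly builds in. A summit more than 1 kb from both ends needs a gene of over 2 kb. Host lengths of closer peaks in that location were not measured. The median host was 13435 bp (8041 to 19025), with a range of 2266 to 94255 bp, and the summit lay a median of 3029.5 bp (1775 to 3721) from the nearer end. A pair of isolated peaks lay in each of 2 protein-coding genes. In LOC112187222 on chromosome 2, of 19733 bp, the pair lay at opposite ends, with summits 292 and 353 bp inside and folds of 6.15 and 7.62. In LOC112177379 on chromosome 7, of 40859 bp, the summits lay 676 and 3688 bp from the nearer end, with folds of 4.32 and 5.25.

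The share of peaks that were isolated is made of the rule's own values, so its spread among chromosomes is a description. It was lowest on chromosome 2, at 6.51% (5.72 to 7.37, 233 peaks), and highest on chromosome 4, at 9.62% (8.38 to 11.0, 197 peaks). The windows of these peaks held a median of 86 summits on chromosome 2 and 60 on chromosome 4. Chromosome 5 had the most isolated peaks, 288. The share at protein-coding gene ends ran from 46.2% (40.3 to 52.1) on chromosome 5 to 58.9% (50.3 to 67.1) on chromosome 3, and the share in lncRNA genes from 12.4% on chromosome 1 to 17.01% on chromosome 5. The median fold ran from 7.25 on chromosome 3 to 8.12 on chromosome 6.

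Between classes of the smaller gap, the share at protein-coding gene ends was lower where the gap was larger. The intervals of single classes overlapped there and away from genes, which does not exclude a difference. Intervals of the differences between these classes were not computed. At a smaller gap under 20 kb, 54.3% (49.99 to 58.6) of 530 isolated summits lay at protein-coding gene ends. The share was 51.9% (47.4 to 56.3) at 20 to 30 kb and 45.96% (40.7 to 51.3) at 30 kb or more, in the order of the gap. The shares away from genes were 20.9%, 24.9% and 24.2%.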

How the data were processed

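H3K9ac ChIP-seq peaks of 1 library were analysed, which the labels call petal and the names of its peaks Flower. FastQC, Trim Galore, Bowtie2, MACS2 and SICER are named in the submitters' processing notes. The sources used here give neither versions and settings nor the handling of duplicate or multiply placed reads. The authors deposited, per peak, a fold enrichment (a linear ratio over local background), −log10 p-values and q-values (lowest −log10 q-value 1.31), and a score that is 10 times the −log10 q-value cut to a whole number in 99.9957% of peaks. Coordinates were converted to count from 1. The lists state no read totals. Fragments over each summit were recovered as the whole number that gives the deposited fold and Poisson p-value within 0.002, for 46389 of 46391 chromosomal peaks and all 1392 members. Simulated peaks (3619) were recovered at 100%, as were planted isolated peaks and locations. The planted peaks did not vary the windows or come close to the 15 kb limit. Simulated backgrounds did not reach the highest real one, 78.4 fragments.

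Genes came from RefSeq on RchiOBHm-V2 (41022 on the chromosomes), without strand, product names or sequence. The planned classes of gene starts therefore became gene ends, and the planned product lists and promoter motifs were not analysed. A summit took the first location that applied, in the order protein-coding, other gene, outside. Shares above 0 carry 95% Clopper-Pearson intervals, shares of 0 the limit of 3 counts, differences Newcombe intervals, medians order-statistic intervals, and folds exact Poisson intervals on the summit fragments. Named peaks were the 10 highest by fold, the 5 with the largest smaller gap, the 5 widest and the 5 on either side of the spacing limit. The members, comparisons and named peaks were chosen with earlier results of these data known. Alternatives covered spacing, thresholds, widths, windows and distances. Figures were drawn with matplotlib 3.10.9. Intervals came from scipy 1.17.1, and tables were handled in Python 3.11.15 with pandas 2.3.3 and numpy 2.4.6.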

Additional observations from a re-analysis of the deposited data

How the results depend on the processing

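Of 104 recomputed values, 72 stayed within the interval of the reported value (counts within 1.5 times), 32 moved and none reversed. Both differences from closer peaks kept their sign in all 13 alternatives each, with intervals that left out 0. These alternatives did not compare peaks within classes of windows. There the interval at gene ends included 0 in windows of 41 to 80 summits (−3.07 points, −6.61 to 0.463). Away from genes it included 0 above 120 summits (3.69 points, −1.82 to 11.0). At the limit of 15 kb the order at gene ends was the opposite, as given above, in few peaks and without an interval of the difference. The cause of the moves was not tested, beyond what a setting builds in. Among peaks of a −log10 q-value of at least 10, taken before spacing and windows were found, 59.98% of isolated summits lay at protein-coding gene ends, 51.8% within 500 bp of an end on either side, 11.4% in lncRNA genes and 16.5% more than 1 kb from any gene. There the difference in that last share was 4.50 points, the median fold 8.42 and the share of flanking genes without a peak 92.2%. At 5 or more, the shares at ends, within 500 bp of an end and away from genes were 55.2%, 46.2% and 20.3%. With any width there were 2468 peaks of median fold 5.71, with 39.7% at ends, 33.3% within 500 bp of an end, 12.2% in lncRNA genes, 33.9% away from genes and a difference in the last of 15.6 points. At widths under 1000 bp the share at ends was 47.3%, that away from genes 25.998% and the median fold 7.25. Spacing of 10 kb gave 2426 peaks and 81.97% of flanking genes without a peak, 20 kb gave 862 and 92.7%, and spacing between summits gave 86.2% of such genes. Members of fold 5 or more, beside unfiltered closer peaks, had a median fold of 8.36. With end zones of 500 bp the share at ends was 41.7% and its difference −4.36 points, and with 2 kb the difference was −11.5. Within 1 kb of an end on either side lay 54.3%. Beyond 2 and 5 kb from any gene lay 20.04% and 13.6%. No paired analysis was possible because there is 1 library. Depth sets the limits: the median isolated peak rests on 36 fragments, so the order of single peaks is uncertain.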

Other observations

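Some isolated peaks followed one another, which the rule favours, since the next peak already has a free stretch on the shared side. Of 1392, 948 stood in no such run and 444 (31.9%) had another isolated peak as the next peak on at least 1 side, in 167 pairs, 27 runs of 3, 6 runs of 4 and 1 run of 5. The run of 5 lay on chromosome 7 from 43351963 to 43561557, over 209.6 kb, within the window that held the most isolated peaks. Runs of 4 included one of 95.9 kb on chromosome 2 from 69973414 to 70069311 and one of 81.05 kb on chromosome 4 from 220457 to 301502.

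The same library placed on the RcHzRDP12 assembly also held lone peaks. By width and spacing alone, without windows, 2185 of 20496 peaks of at least 400 and under 1500 bp with a neighbour on both sides of their sequence were isolated (10.7%, 10.2 to 11.1), against 1559 of 23144 on the chromosomes of RchiOBHm (6.74%, 6.42 to 7.07). On RcHzRDP12 another 6801 peaks of that width lacked a neighbour on at least 1 side, because its peaks are spread over 7088 sequences, so both shares rest on different selections. The median fold of isolated and other peaks was 7.07 and 6.85 on RcHzRDP12, and 7.60 and 7.19 on RchiOBHm. Peaks were not matched between assemblies.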
